A study of Mus musculus with 32 samples.

Results

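Kti12, Txndc12, Snx6 and Endou are 4 mouse genes assigned to 3 of the 5 Ikaros regions with the highest peak ranks among those newly bound after 2 h of Ikaros induction. They are 4 of the 21951 protein-coding genes of the mouse annotation, and they mark 3 loci, since Kti12 lies inside an intron of Txndc12. Members were chosen from the HA-Ikaros peak lists. A region was taken as newly bound, or gained, when it had a peak in both 2 h libraries and in neither 0 h library, and gained regions were ranked by the fold enrichment of their peaks in column 7 of the lists. All peaks within 100 kb of the annotated start of each gene were then collected for Ikaros, CHD4 and H3K27ac (mm10). The Ikaros values at 0 h and 2 h therefore made these genes members and are given as a description, without a test.

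The cells were B3, a mouse pre-B cell line, transduced by retrovirus with an Ikaros-ERt2 fusion that carries an HA tag. In this system 4-hydroxytamoxifen (4-OHT) lets the fusion enter the nucleus. Untreated cells made the 0 h group, and cells given 500 nM 4-OHT for 30 min, 1 h or 2 h made the other groups. All 4 groups carried the construct, including the 0 h group, all came from 1 line, and the labels do not say whether the transduced cells were a clone or a pool. Chromatin immunoprecipitation was followed by sequencing (ChIP-seq) for the HA tag, for CHD4 and for histone H3 acetylated at lysine 27 (H3K27ac), with 2 replicates per time and 24 peak lists in all. Since the labels do not say that replicates were separate cultures, the spread between them may be technical.

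Ikaros (IKZF1) is a zinc finger DNA-binding protein that lymphocyte progenitors need for their development. It binds words with a GGAA or GGGA core and works with the NuRD complex, in which CHD4 is the ATPase that moves nucleosomes and histone deacetylases remove acetyl groups. H3K27ac marks active promoters and enhancers. Kti12 is a partner of Elongator, the complex that modifies uridines in transfer RNAs. Txndc12 is a small thioredoxin-domain protein of the endoplasmic reticulum. Snx6 is a sorting nexin with a BAR domain that works with retromer in transport from endosomes to the Golgi. Endou is an endoribonuclease that cuts RNA at uridylates.

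The lists held 5373 to 14874 Ikaros peaks, 2488 to 9593 CHD4 peaks and 21468 to 33664 H3K27ac peaks per library. Joined over the 8 libraries of each target, they gave 23844, 15355 and 39289 regions. Mean coverage, recovered from the peak statistics, was 1.98 to 3.59 fragments per base for the Ikaros libraries and 3.75 to 4.34 for H3K27ac. The highest Ikaros values, 3.59 and 3.13, were those of the 0 h libraries, against 2.85 and 2.13 at 2 h. For CHD4 the depth is unknown, because the broad format does not hold the values needed. An H3K27ac peak lay within 1 kb of the start of 7 of 7 B-lineage marker genes in all 8 libraries and of 0 of 6 marker genes of other lineages in any library. Vpreb1 and Igll1, 2 of the 7, had the same folds in all 8 libraries and so rest on the same peaks.

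Of the 2861 Ikaros regions gained at 2 h, the region with the highest mean rank, at the 99.2 and 99.4 percentiles of the 2 h lists, was chr4:108847272-108848609, which covers the start of Kti12 (ENSMUSG00000073775.4, chr4:108847785-108849413, plus strand). It overlaps the coding exon and the 5′ UTR of this single-exon gene and lies in an intron of Txndc12 (ENSMUSG00000028567.8, chr4:108834601-108862127, plus strand), whose start is 13.2 kb upstream of that of Kti12. By starts of genes and of transcripts the nearest to the region was Kti12, not Txndc12. A730015C16Rik, annotated on the opposite strand, overlaps the region too. The start of that gene is 10 bp beyond the end of the region and 834 bp from the Kti12 start. The summits, 98 to 240 bp downstream of the Kti12 start, were nearer to that of Kti12. Which of the 2 genes the peak belongs to was not tested.

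The region in place 4, chr12:54737440-54739352, lies 6997 bp beyond the 3′ end of Snx6 (ENSMUSG00000005656.9, chr12:54746349-54795703, minus strand). It is intergenic apart from Gm22317, an annotated small nuclear RNA (snRNA) gene inside it. It was 21131 bp from the nearest annotated Snx6 transcript start, an internal one, and 56351 bp from the start of the whole gene. By starts of whole genes the nearest was Eapp, at 41543 bp, so Snx6 is the nearest gene only by transcript starts.

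The region in place 5, chr15:97720454-97722064, lies within Endou (ENSMUSG00000022468.12, chr15:97711015-97731339, minus strand), 9275 bp downstream of the gene start. It covers 2 internal transcript starts, at 97721150 and 97721162, with exon, coding and UTR sequence of the gene. Places 2 and 3 were the regions nearest to Cdk1 and Bcl2l11, which are not members. Mean ranks were 99.34 for Kti12, 96.96 for Snx6 and 96.57 for Endou, and the regions just below, nearest to Mgea5 and Wapl, had mean ranks of 95.7 and 95.1.

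The DNA under the 2 h summits is shown because these 101 bases are what the peaks point to. Each line gives the summit with 50 bases on either side (mm10), 5′ to 3′ on the strand of the member gene, with every GGAA or GGGA and their reverse complements TTCC and TCCC in capitals. For Kti12 replicate 2 only the 43 coding bases of that window are printed. They do not hold the summit, at chr4:108847883, which lies in the UTR bases left out.
Kti12 2 h replicate 1, chr4:108847951-108848051, plus strand: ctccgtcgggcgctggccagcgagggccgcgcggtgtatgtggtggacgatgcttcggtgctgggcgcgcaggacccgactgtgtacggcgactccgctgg
Kti12 2 h replicate 2, chr4:108847891-108847933, plus strand: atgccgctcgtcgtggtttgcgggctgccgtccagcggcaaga
Snx6 2 h replicate 1, chr12:54737744-54737844, minus strand: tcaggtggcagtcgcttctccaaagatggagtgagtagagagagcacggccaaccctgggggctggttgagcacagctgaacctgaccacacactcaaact
Snx6 2 h replicate 2, chr12:54738118-54738218, minus strand: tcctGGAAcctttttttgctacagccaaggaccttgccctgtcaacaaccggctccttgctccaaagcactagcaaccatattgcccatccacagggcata
Endou 2 h replicate 1, chr15:97721271-97721371, minus strand: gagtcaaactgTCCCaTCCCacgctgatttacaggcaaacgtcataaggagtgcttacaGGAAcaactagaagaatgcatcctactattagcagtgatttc
Endou 2 h replicate 2, chr15:97721396-97721496, minus strand: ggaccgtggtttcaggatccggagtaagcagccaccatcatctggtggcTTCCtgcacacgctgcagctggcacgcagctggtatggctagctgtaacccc

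Over whole windows of 101 bases, GGAA on either strand occurred in 4 of the 6 windows. It occurred 3 times at Kti12 in replicate 2, in the UTR bases not printed, once at Snx6 in replicate 2 and once in each Endou window. The windows at Kti12 and Snx6 in replicate 1 held neither word. GGGA occurred in 1 window, Endou replicate 1, with 2 copies. The longer word TGGGAA, which holds both cores in overlap, was in none of the 6. Over the 8829 Ikaros regions called in both 2 h libraries, windows of the same length held GGAA in 78.2% and 81.6% of cases in replicates 1 and 2, GGGA in 78.8% and 80.4%, and TGGGAA in 12.6% and 13.1%. A word match is a description of the letters and does not mark a bound site.

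Txndc12 differs from the other members in that the Ikaros region at its own start was already called at 0 h. Its promoter sequence, taken from the RefSeq promoter table (mm10), is shown for that reason up to the base before the annotated gene start, with the same words in capitals, and with adjoining or overlapping words written as 1 run.
Txndc12 promoter, chr4:108834428-108834600, plus strand: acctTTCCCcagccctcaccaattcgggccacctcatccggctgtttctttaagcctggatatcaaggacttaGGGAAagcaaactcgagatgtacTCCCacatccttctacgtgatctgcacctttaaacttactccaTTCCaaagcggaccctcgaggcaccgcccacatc

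GGAA and GGGA, both strands counted, each occurred 3 times in these 173 bases, and TGGGAA did not occur. Of 32851 RefSeq promoters cut to the same length, 85.6% held GGAA, 84.9% held GGGA and 15.8% held TGGGAA. The table matched 3 of the 4 members.

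Across the 3 loci, 33 Ikaros regions with 157 peaks lay within 100 kb of a member start. Of these regions, 21 (63.6%) had no peak in either 0 h library, against 56.5% of all 23844 Ikaros regions, and 3 had a peak in 1 and 9 in both 0 h libraries. By peaks, 62 lay in regions without a 0 h call, 20 in regions with 1 and 75 in regions with 2. The share without a 0 h call was near that of all regions. Gained regions were 5 of 33, where 12% of all Ikaros regions were gained, and this count includes the 3 regions that the choice of members fixed. No region of the windows was lost, that is, called in both 0 h libraries and neither 2 h library, where 3.59% of all Ikaros regions were.

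**Figure D1:**
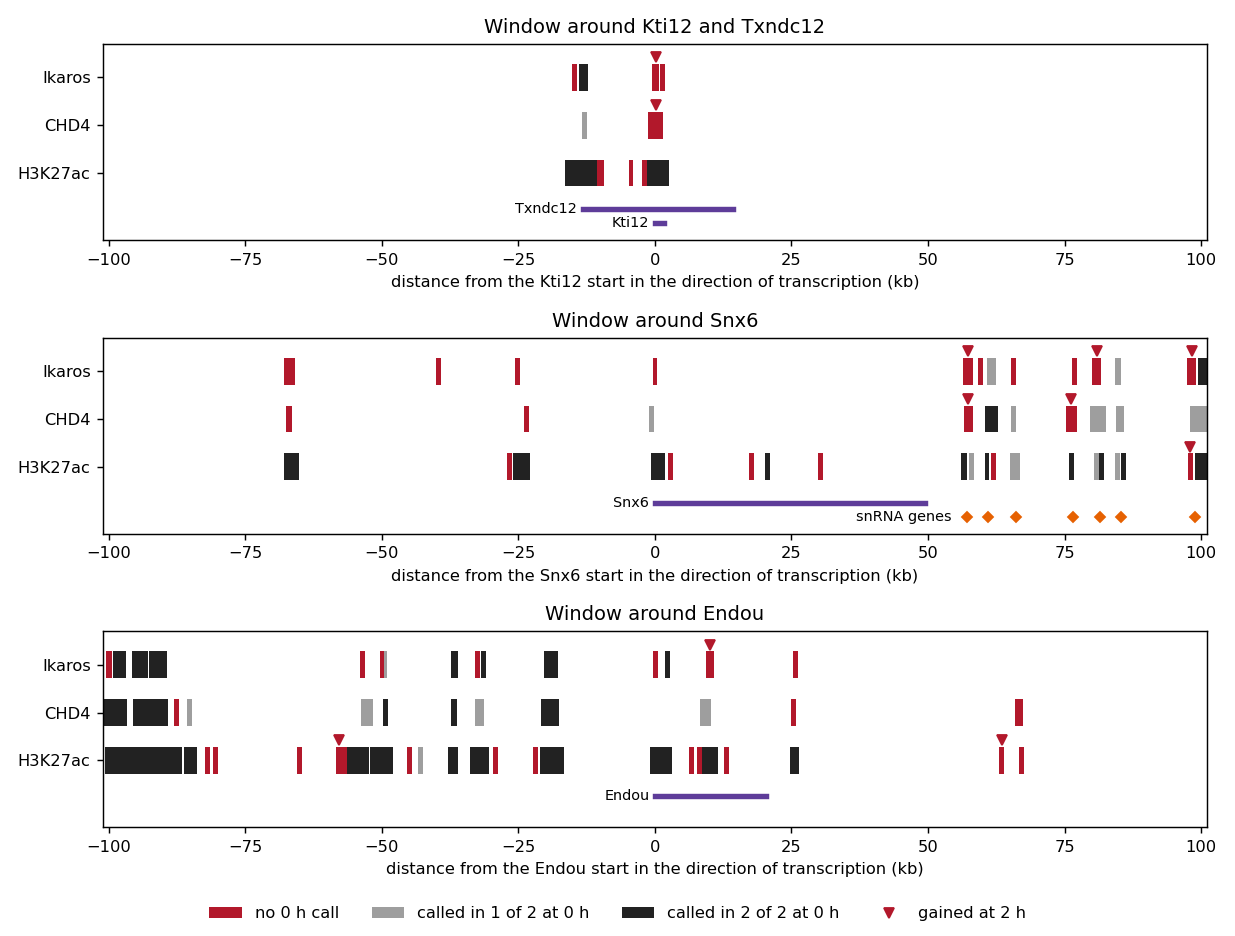
Regions called for Ikaros, CHD4 and H3K27ac within 100 kb of the member starts, by distance from the start in the direction of transcription (kb), with narrow regions drawn wider than to scale. Red regions had no 0 h call, grey regions had 1 and black regions had 2, triangles mark regions gained at 2 h, purple bars are the member genes and orange diamonds the 7 snRNA genes of the Snx6 window.

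The newly bound region at the Kti12 start had no Ikaros peak in 0 h replicates 1 and 2. At 30 min its fold enrichment over local background was 6.43 in replicate 1, with no peak in replicate 2. At 1 h it was 10.5 and 6.89, and at 2 h 9.61 and 12.2. All 4 libraries from 1 h on thus called the region, and the 1 h and 2 h ranges overlapped. The fragments recovered over the summits numbered 22 at 30 min, 36 and 30 at 1 h, and 36 and 41 at 2 h, over local backgrounds of 2.45 to 3.499. The 5 summits fell within 142 bp of each other, 98 to 240 bp downstream of the Kti12 start. They lay inside the transcribed unit, from the end of its 5′ UTR into the coding sequence.

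At the newly bound region beyond Snx6 the 0 h libraries again had no Ikaros peak. The fold was 6.27 in 30 min replicate 1, with no peak in replicate 2, then 9.09 and 9.90 at 1 h and 7.24 and 10.7 at 2 h. Fragments over the summits numbered 22 at 30 min, 37 and 38 at 1 h, and 27 and 41 at 2 h. The pattern by library was the same as at Kti12, but the 5 summits spread over 454 bp. Both replicates of 2 h bracketed those of 1 h in fold.

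At the newly bound region inside Endou no Ikaros peak was called at 0 h, and both 30 min libraries already had one, with folds of 7.35 and 6.96. The folds were 9.95 and 10.5 at 1 h and 7.0005 and 11.2 at 2 h, over 25 and 26 fragments at 30 min, 40 and 33 at 1 h, and 29 and 34 at 2 h. The summits spanned 144 bp, 9874 to 10018 bp downstream of the gene start. Endou was the only member of the 3 newly bound loci with a call in both 30 min libraries. Among all gained Ikaros regions 13.1% had both calls, and 25% had, like the regions of Kti12 and Snx6, a call in replicate 1 alone. The list of 30 min replicate 2 was the shortest of the 8, with 5373 peaks against 9181 in replicate 1.

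These folds were high for gained regions, by the choice of members. The median fold of all gained regions was 4.20 and 4.79 in the 2 h libraries, with 95th percentiles of 6.23 and 7.36. At 30 min and 1 h, which the ranking did not use but which share the regions, medians were 4.38 to 4.79 and 95th percentiles 6.50 to 7.73. The absence of a call at 0 h is not a level of 0. At the library-wide background, 13 fragments were enough for a call in each 0 h library, against 9 to 11 in the later ones, so a summit with fewer fragments than that would not be called.

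**Figure D2:**
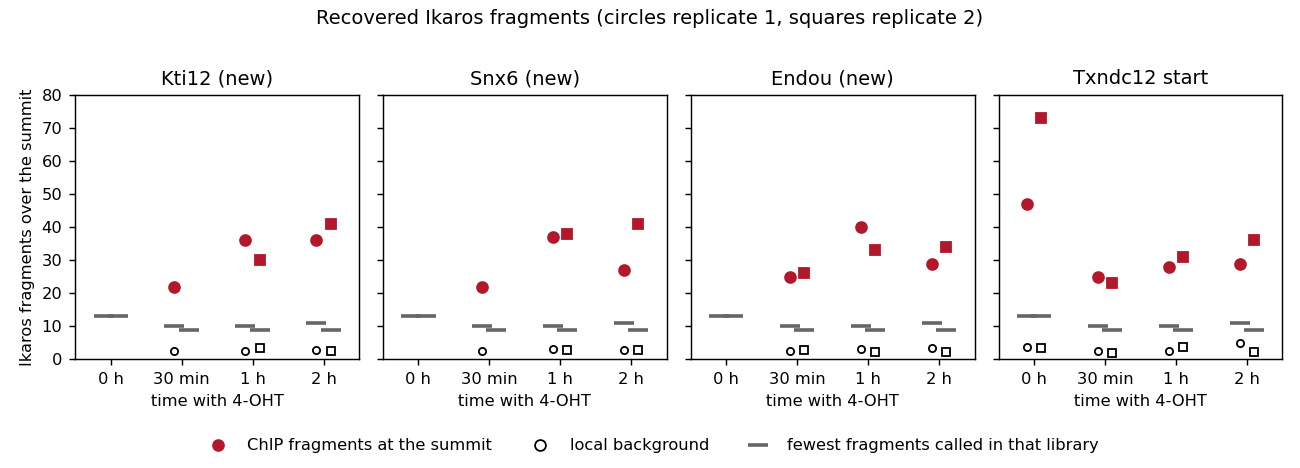
ChIP fragments over the Ikaros summit (filled symbols, circles replicate 1 and squares replicate 2), local background (open symbols) and the fewest fragments called in each library (grey lines), by time with 4-OHT. The newly bound regions of Kti12, Snx6 and Endou held 22 to 41 fragments where called and no peak at 0 h, whereas the Txndc12 start held 47 and 73 at 0 h.

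The Ikaros region over the start of Txndc12, chr4:108833821-108835557, had a peak in all 8 libraries, so both of its 0 h calls were present. Its folds were 10.3 and 15.9 at 0 h, 7.35 and 8.05 at 30 min, 8.24 and 6.69 at 1 h and 5.09 and 11.8 at 2 h. The 30 min and 1 h values lay below both 0 h values, while the 2 h range overlapped the 0 h range. Fragments over the summit numbered 47 and 73 at 0 h, 25 and 23 at 30 min, 28 and 31 at 1 h, and 29 and 36 at 2 h. The starts of Txndc12 and Kti12, on the same strand and 13.2 kb apart, thus held an Ikaros region with both 0 h calls and one with none.

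The starts of Snx6 and Endou held few Ikaros calls. At the Snx6 start, chr12:54795436-54795939 had a peak in 2 h replicate 1 alone, with a fold of 3.72 and no 0 h call. The Endou start, chr15:97731067-97731545, had a peak in 30 min replicate 1 (3.96) and in 1 h replicate 2 (3.59), none at 0 h and none at 2 h. In neither gene was the annotated start called in both replicates of any time. A further region inside Kti12, chr4:108848777-108849393, had folds of 4.07 in 1 h replicate 2 and 3.64 in 2 h replicate 1, with no 0 h call. The last region of that locus, chr4:108832954-108833227, lay 1374 bp upstream of Txndc12 and nearer to Btf3l4, with 4.33 in 1 h replicate 2 and 3.84 in 2 h replicate 2 and no 0 h call.

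The Snx6 window held 14 Ikaros regions, of which 11 had no 0 h call, 2 had 1 and 1 had both. Apart from the newly bound region, 2 were gained. The first, chr12:54696606-54698246, had folds of 3.67 in 30 min replicate 1, 8.52 in 1 h replicate 2 and 3.28 and 4.97 at 2 h. The second, chr12:54713996-54715604, had 3.93 in 30 min replicate 1, 4.42 and 6.56 at 1 h and 3.17 and 7.08 at 2 h. In both, 2 h replicate 2 was the higher library, as it was at the newly bound region. Neither of these 2 remained gained with lists of equal length, nor did the first at a −log10 q of at least 3. The 1 region with both 0 h calls, chr12:54694559-54696356, overlapped the start of Eapp and had folds from 4.10 to 10.6 in all 8 libraries. The remaining 10 regions had 1 to 7 calls each, and 5 regions of the window were seen in a single library.

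The Endou window held 15 Ikaros regions, 7 without a 0 h call, 1 with 1 and 7 with both. Only the region inside Endou was gained. Another, chr15:97728931-97729311, lay 2028 bp downstream of the Endou start with folds of 3.45 and 5.40 at 0 h, no peak at 30 min, 4.55 in 1 h replicate 1 and 3.38 in 2 h replicate 1. It was thus called before induction, unlike the region gained further downstream. The 4 regions with a peak in all 8 libraries lay upstream, nearest to Rapgef3 and Hdac7. The highest fold in the window was 13.2, in 30 min replicate 1 at chr15:97824245-97827151, 92906 bp from the Endou start, where both 0 h libraries had folds of 10.4 and 11.5.

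The newly bound region near Snx6 lies in repeated DNA. The window holds 7 snRNA genes of 164 bp each (Gm22513, Gm22634, Gm23804, Gm25679, Gm26444, Gm24305 and Gm22317), and RefSeq lists 5 of them as U1 spliceosomal RNA, the RNA that pairs with the 5′ splice site. All 7 genes overlapped an Ikaros region, and 7 of the 14 Ikaros regions of the window, including all 3 gained ones, overlapped such a gene. Over the genome, 0.151% of Ikaros regions and 0.210% of gained regions overlapped an annotated snRNA gene. These are overlaps of whole regions. The highest Ikaros summits of the newly bound region, at 54737794 to 54738248, lay outside Gm22317. Summits at 1 h and 2 h lay 409 to 723 bp downstream of the Gm22634 start, beyond the gene. So did those at Gm23804 (474 to 718 bp) and Gm24305 (480 to 790 bp). At Gm25679 and Gm26444 they lay at 150 to 515 and 112 to 548 bp, so the nearest fell inside the gene. The copy inside the newly bound region is printed because the others are nearly the same. Capitals mark its only positions, counted from 1 at the 5′ end of the gene, at which another of the 7 copies differs.
Gm22317, chr12:54738459-54738622, minus strand: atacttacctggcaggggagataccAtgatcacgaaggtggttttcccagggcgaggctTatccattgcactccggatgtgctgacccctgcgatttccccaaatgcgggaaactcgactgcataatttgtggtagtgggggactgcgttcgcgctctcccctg

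Of the 7 sequences 5 were identical, Gm24305 differed by A26G and Gm22513 by T60C. The repeat is longer than the genes. Of the 31-base words of the newly bound region, 3.24% occurred once in the genome, and no word occurred more than 27 times. By contrast, 100% of the words of the newly bound regions of Kti12 and Endou and 99.8% of those of the Txndc12 start region occurred once. In the Snx6 window 7 of 14 Ikaros regions, 5 of 10 CHD4 regions and 13 of 21 H3K27ac regions had under 10% of such words, and 0 regions of the other loci did. Fragments from near-identical copies can be placed on any of them, so the values of these Snx6 regions are uncertain, and the part of the repeat in the gain near Snx6 was not tested. The region at the Snx6 start itself had 100% of words found once.

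**Figure D3:**
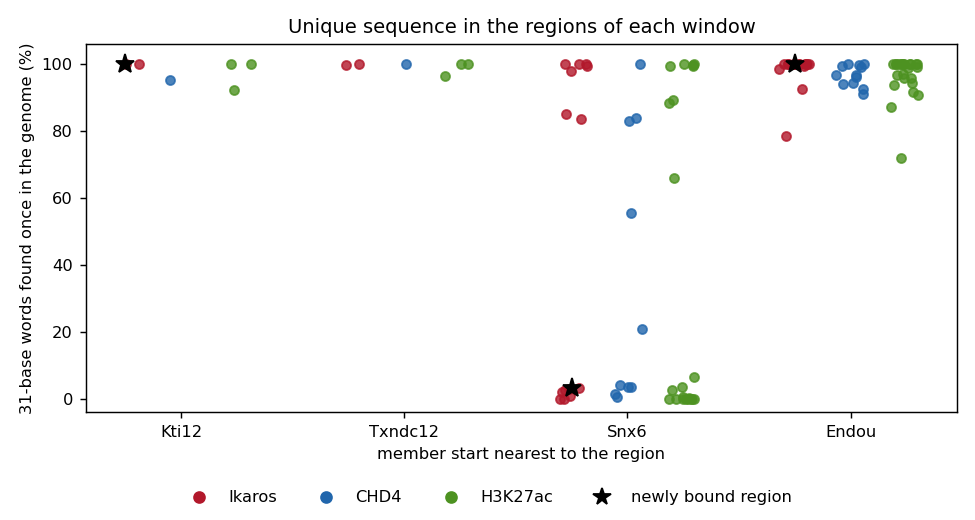
Share of the 31-base words of each region that occur once in the genome (%), by the nearest member start, for Ikaros, CHD4 and H3K27ac regions, with stars for the newly bound regions. The star of Snx6 sits at 3.24% among regions near 0, while those of Kti12 and Endou sit at 100%.

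CHD4 had 24 regions with 112 peaks in the windows, of which 8 (33.3%) had no 0 h call, 10 had 1 and 6 had both, against 59.6% without a 0 h call over all 15355 CHD4 regions. By peaks, 19, 43 and 50 lay in these classes. Gained CHD4 regions were 3 of 24, where 5.31% of all were, and lost ones 0, where 1.45% were. All 3 gained regions lay at Kti12 or in the snRNA cluster of the Snx6 window. Column 7 of a broad peak is a mean over the region, so that CHD4 folds are not comparable with those of the narrow peaks.

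At Kti12, chr4:108846598-108849311 had no CHD4 peak at 0 h, a fold of 4.89 in 30 min replicate 1, 6.53 and 3.26 at 1 h and 3.71 and 3.19 at 2 h. CHD4 was thus called in the same 5 libraries by time and replicate as Ikaros at this start. At the newly bound region near Snx6, chr12:54737508-54739174 had no CHD4 peak at 0 h, 3.39 in 30 min replicate 1, 4.88 and 3.73 at 1 h and 4.19 and 2.99 at 2 h, again in the 5 libraries that called Ikaros. The other gained region, chr12:54718480-54720453, had 3.44 and 3.42 at 1 h and 3.07 and 3.0997 at 2 h, with no peak at 0 h or 30 min. Of all gained Ikaros regions 7.69% overlapped a gained CHD4 region, and 24.6% overlapped a CHD4 region called in both 2 h libraries. The CHD4 lists of 0 h were of unequal length, with 2488 and 6000 peaks against 5523 and 9593 at 2 h, and none of the 3 remained gained when lists of equal length were compared or when peaks needed a −log10 q of at least 3. The region near Snx6 was also not gained among peaks with a fold of at least 3.

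The CHD4 region at Endou had a 0 h call. At chr15:97721067-97723157 the fold was 3.34 in 0 h replicate 2, with no peak in replicate 1, then 3.46 and 3.81 at 30 min, 3.61 and 3.83 at 1 h and 3.25 and 3.77 at 2 h. The values lay close together in all 7 libraries, including the 0 h one. Of all gained Ikaros regions 31.1% overlapped a CHD4 region called in either 0 h library. At the Txndc12 start, chr4:108834409-108835407 had a CHD4 peak in 1 replicate of each time, with 3.06 in 0 h replicate 2, 3.21 in 30 min replicate 1, 4.23 in 1 h replicate 1 and 3.47 in 2 h replicate 2. The Snx6 start had 1 CHD4 peak, in 0 h replicate 2 (3.04, chr12:54795848-54796708), and no CHD4 region lay within 1 kb of the Endou gene start.

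A test was possible for regions called in all 8 libraries, with limma on the log2 fold, each library centred on its median. For CHD4, 2 regions of the windows were tested, both upstream of Endou. At chr15:97748911-97752180 the change from 0 h to 2 h was 0.14 on the log2 scale (SE 0.14, limma adjusted p = 0.927), and at chr15:97820584-97826945 it was 0.017 (SE 0.12, limma adjusted p = 0.977). Neither passed, nor did either at an unadjusted p under 0.05. Over all 723 tested CHD4 regions 3 (0.415%) were higher and 1 (0.138%) lower at 2 h.

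**Figure D4:**
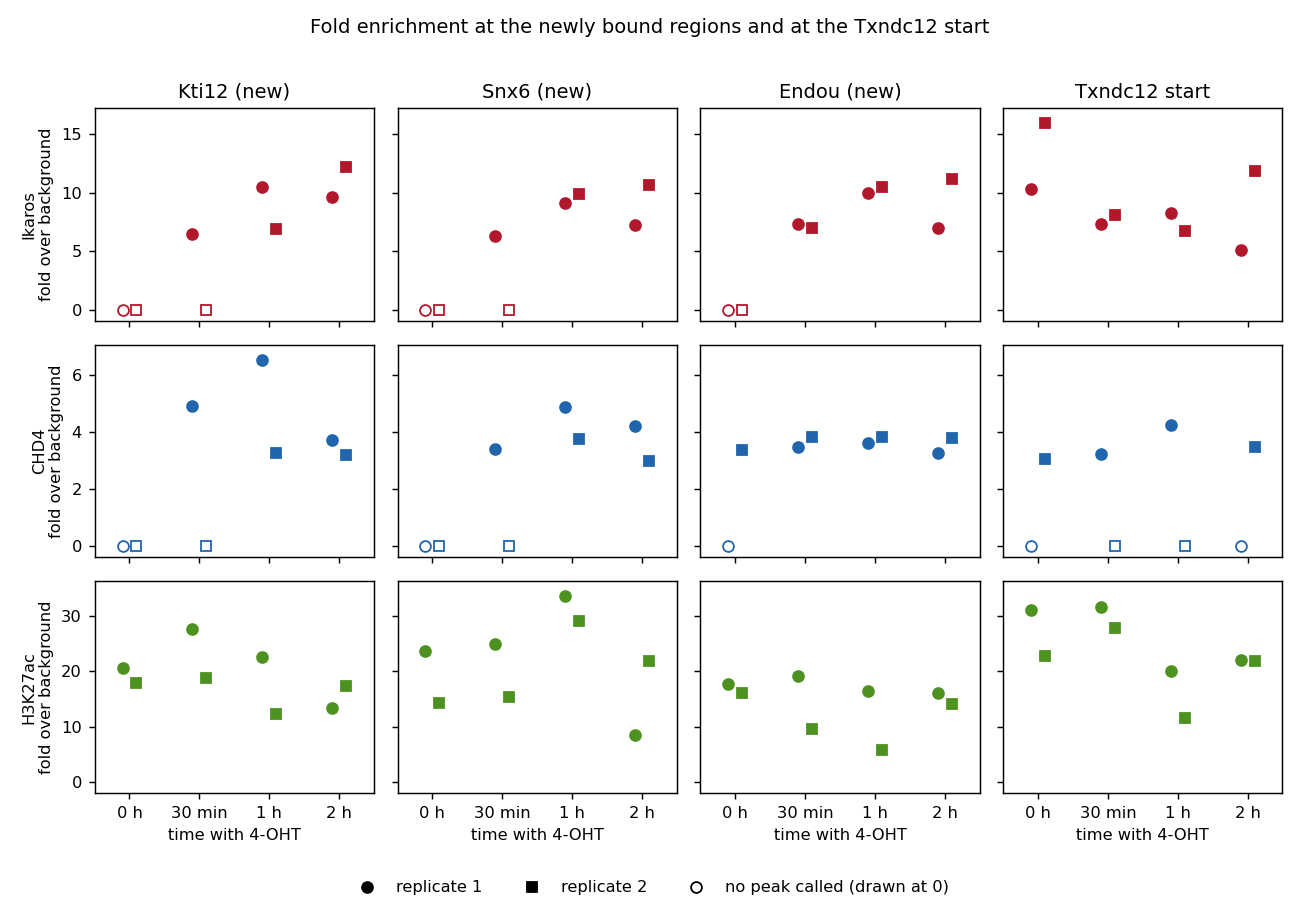
Fold enrichment over local background of Ikaros, CHD4 and H3K27ac at the newly bound regions of Kti12, Snx6 and Endou and at the Txndc12 start, by time with 4-OHT, for replicate 1 (circles) and replicate 2 (squares). Open symbols at 0 stand for libraries with no peak called, which is not a measured 0. H3K27ac was called in all 8 libraries at each of the 4 places, CHD4 at 0 h only at Endou and Txndc12, and Ikaros at 0 h only at Txndc12. The H3K27ac region drawn for Snx6 overlaps the newly bound region but not its highest Ikaros summits.

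H3K27ac had 51 regions with 286 peaks in the windows. No 0 h call was found for 23 regions (45.1%, against 45.4% of all 39289), 1 for 6 and both for 22, and the peaks fell into these classes as 40, 23 and 223. The share without a 0 h call was that of all regions. Of the 51 regions, 17 were seen in 1 library only. Gained H3K27ac regions were 3 of 51, where 3.73% of all were, and lost ones 0, where 2.78% were.

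Each of the 3 newly bound regions overlapped an H3K27ac region called in both 0 h libraries. The region over Kti12, chr4:108846330-108850286, had H3K27ac folds of 20.6 and 17.9 at 0 h, 27.6 and 18.7 at 30 min, 22.5 and 12.2 at 1 h and 13.4 and 17.4 at 2 h. Both 2 h values lay below both 0 h values. With each library centred on its median, the log2 change was 0.13 (SE 0.26, 95% interval -0.44 to 0.70, limma adjusted p = 0.857). Of all gained Ikaros regions 86.4% overlapped an H3K27ac region called in both 0 h libraries.

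The acetylated region over the Txndc12 start, chr4:108831238-108837329, also covers the start of Btf3l4 and had H3K27ac folds of 31.02 and 22.7 at 0 h, 31.6 and 27.7 at 30 min, 19.96 and 11.5 at 1 h and 22.0 and 21.8 at 2 h. The lowest values were those of 1 h, and the 2 h values lay just below the lower 0 h value. The centred log2 change at 2 h was 0.19 (SE 0.25, 95% interval -0.36 to 0.73, limma adjusted p = 0.773).

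At the newly bound region near Snx6, chr12:54738535-54739721 had H3K27ac folds of 23.6 and 14.3 at 0 h, 24.9 and 15.3 at 30 min, 33.6 and 29.1 at 1 h and 8.41 and 21.8 at 2 h. The 2 h replicates lay far apart, and their range overlapped that of 0 h. The log2 change was 0.02 (SE 0.37, 95% interval -0.78 to 0.82, limma adjusted p = 0.986). The summits of the highest Ikaros peaks, at 54737794 to 54738248, lay outside this H3K27ac region. A smaller acetylated region on the other side of the newly bound region, chr12:54737463-54738068, had 3.86 in 0 h replicate 1 and no peak in 0 h replicate 2. It had 5.15 in 30 min replicate 1, 2.54 and 3.11 at 1 h and 3.96 and 3.43 at 2 h. The Snx6 start, chr12:54793908-54796509, outside the repeat, had 10.1 and 13.5 at 0 h, 15.5 and 9.13 at 30 min, 15.5 and 12.1 at 1 h and 8.68 and 11.5 at 2 h, with a change of 0.24 (SE 0.30, 95% interval -0.40 to 0.87, limma adjusted p = 0.751).

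The region inside Endou, chr15:97719850-97722853, had H3K27ac folds of 17.7 and 16.02 at 0 h, 19.2 and 9.54 at 30 min, 16.3 and 5.77 at 1 h and 16.1 and 14.2 at 2 h. Replicate 2 was the lower library at all 4 times. The change was 0.30 (SE 0.33, 95% interval -0.40 to 1.01, limma adjusted p = 0.707). The Endou gene start, chr15:97728129-97732327, was less acetylated, with 4.96 and 5.28 at 0 h, 5.68 and 5.26 at 30 min, 7.59 and 5.52 at 1 h and 5.54 and 4.93 at 2 h. Its change was 0.49 (SE 0.28, 95% interval -0.10 to 1.09, limma adjusted p = 0.413).

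None of the 21 tested H3K27ac regions of the windows passed in limma at an adjusted p of 0.05, while 27 (0.183%) of all 14715 tested were higher at 2 h and 33 (0.224%) lower. At an unadjusted p under 0.05 there were 2 of 21, against 15.9% of all tested. Both lay in the Snx6 window, at chr12:54713798-54714243 in the snRNA cluster (log2 change 0.81, limma adjusted p = 0.242) and at chr12:54693708-54696884 over the start of Eapp (0.58, limma adjusted p = 0.294), where 88.5% of words occurred once. With centring, 17 of 21 changes were above 0 and their median was 0.22, against 55.2% and 0.054 for all tested. Without centring, 4 of 21 were above 0 with a median of -0.24, against 17.8% and -0.41 for all tested, and the regions called over the genome became 5 higher and 421 lower. Among the 6 named regions, 5 then had a change below 0. The library medians of the tested regions were 12.6 and 10.5 at 0 h and 8.50 and 8.24 at 2 h. The direction at the members thus depends on the scaling, and in both scalings none passed.

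**Figure D5:**
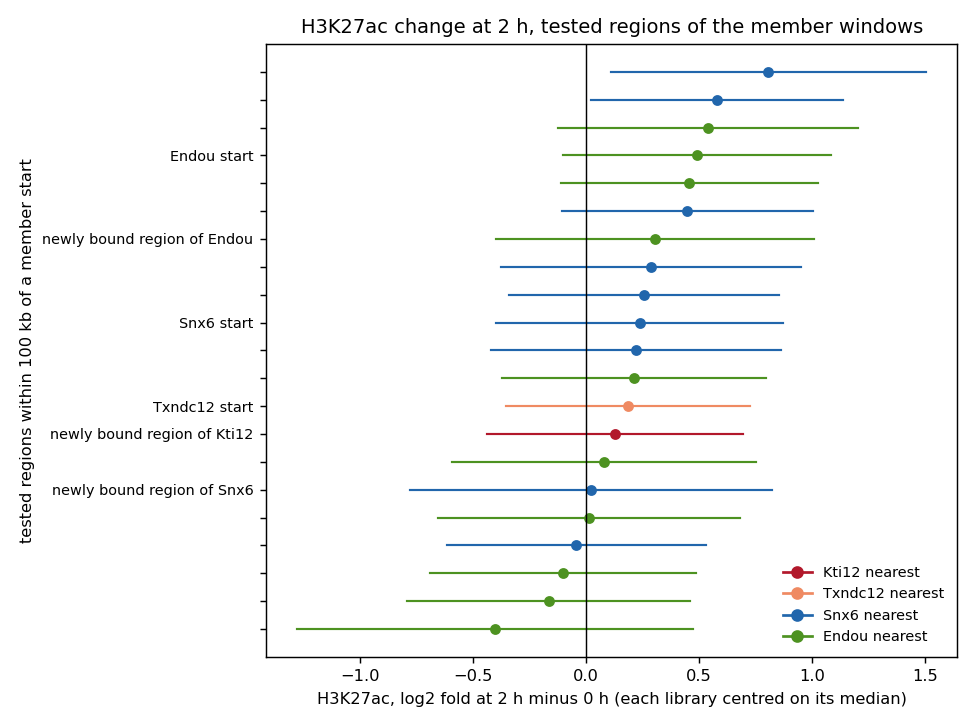
Log2 H3K27ac fold at 2 h minus 0 h, each library centred on its median, for the 21 tested regions of the windows (points) with 95% intervals (lines), coloured by the nearest member. Of the points, 17 lie above 0 and 4 below, and without centring 4 lie above 0. The intervals of all 6 labelled regions include 0.

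The 3 gained H3K27ac regions were small. In the Snx6 window, chr12:54697269-54698038 had folds of 3.48 and 4.34 at 30 min, 3.27 and 4.15 at 1 h and 4.89 and 2.57 at 2 h. In the Endou window, chr15:97667587-97668131, 63208 bp downstream of the start, had 2.58 and 3.84 at 30 min, 4.27 in 1 h replicate 1 and 5.15 and 4.61 at 2 h. The third, chr15:97788714-97789736, 57375 bp upstream, had 3.79 and 3.52 at 30 min, none at 1 h and 2.36 and 3.86 at 2 h. The first overlapped the gained Ikaros region chr12:54696606-54698246, the other 2 overlapped no Ikaros region, and the highest of their folds was far below the median of 13.1 for the 21 regions called throughout.

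Partners of the members were counted the same way, by regions within 1 kb of the gene start. Of the 6 Elongator genes, which work with Kti12, all had an Ikaros region in at least 1 library, 1 (Elp2) had a gained one and 1 (Elp5) one in all 8 libraries. Of 16 thioredoxin-family genes of the endoplasmic reticulum, the family of Txndc12, 9 had an Ikaros region, 1 (Pdia4) a gained one and 2 (P4hb and Tmx1) one in all 8 libraries. Of 8 retromer and SNX-BAR genes, the partners of Snx6, 7 had an Ikaros region, 1 (Vps26b) a gained one and 2 (Snx1 and Snx2) one in all 8 libraries. Over all 21938 protein-coding genes examined, whether expressed in these cells or not, 34.6% had an Ikaros region at the start in at least 1 library, 6.15% a gained one and 4.60% one in all 8 libraries.

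The gained regions of these partners had lower 2 h folds than the newly bound regions of the members, which were chosen for high folds. At Elp2 the folds were 3.40 in 1 h replicate 1 and 4.42 and 5.12 at 2 h. At Pdia4 they were 3.45 in 30 min replicate 1, 4.17 and 3.16 at 1 h and 4.21 and 4.13 at 2 h. At Vps26b they were 4.53 and 4.64 at 30 min, 3.70 and 7.17 at 1 h and 5.61 and 3.63 at 2 h, so that it was, like Endou, called in both 30 min libraries. H3K27ac could be tested at the start of 6, 13 and 8 genes of the lists, and 0 passed in limma in either direction, with 1, 0 and 1 at an unadjusted p under 0.05 and median log2 changes of 0.13, -0.17 and 0.0082. Over all 14715 tested regions 0.183% passed as higher and 0.224% as lower. Of these regions 15.9% had an unadjusted p under 0.05, and their median change was 0.054 with centring and -0.41 without.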

How the data were processed

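Peak lists of 24 ChIP-seq libraries (3 targets, 4 times, 2 replicates) were used, and 8 input libraries have no list here. Per the study's methods and processing notes, the authors aligned reads to mm10 with Bowtie2 (2.4.2), marked duplicates with Picard (2.23.7) and called peaks per library with MACS2 (2.2.7.1), in broad mode for CHD4. Settings for the 30 min libraries are not given in the sources used here. The labels name sonication or MNase without saying which for which library, and the methods say only that chromatin was digested. The deposited lists hold the fold enrichment over local background (column 7, a ratio), the −log10 p and −log10 q values and a score. The score was not used.

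Peaks of the 8 libraries of a target were joined into regions, and a library's value was its highest peak. Fragment numbers were recovered from fold and p, taking for each peak the solution nearest to a whole number. Among peaks of lower significance at least 99.9% came out whole within 0.03, and among all peaks at least 96.2%. These shares are no independent check, since wholeness chose the solutions. Starts, exons and small RNA genes came from GENCODE M21 (GRCm38). Regions called in all 8 libraries were tested for 2 h against 0 h with limma (3.58.1, R 4.3.3, trend) on log2 fold with Benjamini-Hochberg adjustment over all of them, threshold 0.05. The fit was tested on simulated data. Other steps used Python 3.11.15, numpy 2.4.6, pandas 2.3.3, scipy 1.17.1 and matplotlib 3.10.9. Alternatives were stricter thresholds (−log10 q or fold of at least 3), lists of equal length, other overlaps, windows of 50 kb, any transcript start, other scalings, a replicate block and leaving out libraries.

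Named with values were the newly bound region of each member, the CHD4 and H3K27ac regions that overlap it, regions within 1 kb of a member start, and other regions that were gained, lost or called by the test. Other regions named in the text were chosen after their values were seen. Members and gene lists were chosen with earlier results of these data known. Ikaros values were not tested, and with 2 against 2 libraries no exact test of calls can pass 0.05.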

Additional observations from a re-analysis of the deposited data

How the results depend on the processing

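A requirement that a peak cover 50% of its region was chosen after seeing the data. Against 21 Ikaros regions without a 0 h call in the windows, lists of equal length gave 13 and 50 kb windows 11, and leaving out 1 library gave 21 to 23. The 5 gained Ikaros regions became 4 with lists of equal length, not all of them among the 5. The count was 2 with 50 kb windows and 6 to 12 without 1 library, with 12 and 11 without 2 h replicates 1 and 2. Of the newly bound regions, those of Kti12 and Snx6 were not gained under the cover rule and that of Snx6 lay outside the 50 kb window; since 0 h and 2 h calls chose them, their other calls are no sign of stability. The count of 3 gained CHD4 regions became 1 at −log10 q of at least 3, a region that was none of the 3, 0 with equal lists, 1 with 50 kb and 3 to 7 without 1 library (5 and 6 without 0 h replicates 1 and 2, 7 without 2 h replicate 1), and lost ones (0) became 1 under the cover rule and 0 to 2 without 1 library (2, 1 and 2 without 0 h replicates 1 and 2 and 2 h replicate 2). The 3 gained H3K27ac regions became 1 at −log10 q or fold of at least 3, 1 with equal lists, 0 with 50 kb and 3 to 13 without 1 library (6 without 0 h replicate 1, 5 and 13 without 2 h replicates 1 and 2), and the 0 lost ones 0 to 3 (3 without 0 h replicate 2). Without 1 library, the other replicate alone decides the call. Regions called for H3K27ac over the genome (60) became 426 without centring, 91 with quantile normalisation (27 higher, 64 lower), 56 by percentile rank (9 and 47), 48 with a replicate block and 0 to 32 without 1 library, with 0 without any of the 0 h or 2 h libraries and 22 to 32 without a 30 min or 1 h one. For CHD4 (4) they became 0 with quantile normalisation (58 at an unadjusted p under 0.05), 1 by rank, 1 at a mean fold of at least 3, 5 with a replicate block and 1 to 7 without 1 library (7 without 0 h replicate 2, 1 without 2 h replicate 1). In the windows 0 regions passed under each of these, where a region could be tested. No centring reversed the H3K27ac change near Snx6 (-0.44) and at the Snx6 start (-0.22), inside Endou (-0.16), at Txndc12 (-0.28) and at Kti12 (-0.33), and rank reversed the one near Snx6 (-4.41 percentile points). Without 1 library the changes ranged from -0.69 to 0.73 near Snx6, -0.10 to 0.58 at its start, 0.23 to 0.38 inside Endou, 0.32 to 0.67 at its start, 0.088 to 0.28 at Txndc12 and -0.078 to 0.34 at Kti12. The causes were not tested. Same-numbered replicates share only a number, with deviations correlated at -0.0085 to 0.064 for H3K27ac and -0.047 to 0.18 for CHD4. The CHD4 regions at the newly bound regions and at member starts were not called in all 8 libraries, so their change was not tested. For CHD4 the depth is unknown.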
